A study of Homo sapiens with 3 samples.

Results

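MHC class I presentation genes were followed in 22Rv1, an established human prostate cancer cell line, after transfection with 1 of the 2 plasmids compared here. The genes were chosen by name: HLA-B, HLA-C, HLA-E, B2M, TAP1, TAP2, TAPBP, PSMB8 and PSMB9. All 9 had a row in the count table, out of 15466 gene symbols. Cells received 20 μg of plasmid with MLPH transcript V1, or as much with transcript V4, and poly(A) RNA was taken after 48 h. MLPH encodes melanophilin, an adaptor of melanosome transport. The series also has an empty-vector sample. The remaining column of the table carries the cell line's name and no transfection, so it was not used, and the comparison with the empty vector was not analysed here. The sources used here do not give the promoter of the plasmids or the share of cells transfected.

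MHC class I molecules display short peptides from proteins made inside the cell to CD8 T cells and natural killer cells. Proteasomes cut the proteins, and immunoproteasomes do so with catalytic subunits that interferon induces. The TAP transporter moves the peptides into the endoplasmic reticulum, where tapasin and other chaperones load them onto a heavy chain paired with beta-2-microglobulin. Tumour cells, prostate cancer among them, are known for reduced expression of this pathway. NF-kappaB, interferon regulatory factors and the coactivator NLRC5 are its textbook transcription regulators.

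Each group had 1 library, so no test across samples was possible and no difference has a replicate check. Library totals were 9253399 counts (V1) and 9609381 counts (V4). MLPH stood at 7219 counts with V1 and 7773 with V4, which does not check the labels because both libraries received an MLPH plasmid. Of 9 luminal prostate markers with a row, 8 passed the filter on low counts, among them the keratin gene KRT8 (2085 and 1636 counts, V1 first) and the epithelial adhesion gene EPCAM (2003 and 2001). The pan-leukocyte gene PTPRC and the T cell gene CD3E had 0 counts in both libraries, which allows up to 0.324 CPM (counts per 1000000 counts of the library) in V1 and 0.312 CPM in V4. The other leukocyte markers with a row were not at 0. CD68 had 86 and 59 counts (V1 first), CD8A 18 and 30, and LYZ 7 and 6. The 4 fibroblast markers with a row summed to 167 CPM in V1 and 5.0 CPM in V4, with COL1A2 at 976 counts against 4 and COL3A1 at 526 against 0. LUM, another of the 4, ran the other way at 33 counts against 44 and made up most of the V4 sum, and PDGFRB had 6 against 0. The 5 leukocyte markers with a row summed to 12.0 CPM in V1 and 9.89 CPM in V4, the 3 erythroid markers to 27.2 and 18.9 CPM, and the 3 endothelial markers to 0.108 and 1.14 CPM. The difference in the collagen genes ran the same way as the class I differences below, and its part in them was not tested. In bulk RNA, fewer cells that express a gene and less of its RNA per cell cannot be told apart.

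The regulatory sequence before the genes is shown first, because some members whose promoters lie close together or are alike differed between the libraries by unlike amounts. RefSeq promoter windows on GRCh38.p14 matched 8 of the 9 members, all except HLA-E. The windows hold the 250 bases before the annotated start, 5′ to 3′ on the gene's strand. HLA-B (chr6:31357180-31357429, minus strand) and HLA-C (chr6:31272093-31272342, minus strand) encode the classical heavy chains, and their windows were identical at 226 of 254 aligned columns (89.0%). Capitals mark matches to the kappaB consensus, the motif bound by NF-kappaB:

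HLA-B: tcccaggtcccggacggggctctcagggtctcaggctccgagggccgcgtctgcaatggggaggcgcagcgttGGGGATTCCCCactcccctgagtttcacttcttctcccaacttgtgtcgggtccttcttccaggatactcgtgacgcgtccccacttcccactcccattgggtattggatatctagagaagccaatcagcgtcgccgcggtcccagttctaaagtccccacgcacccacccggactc
HLA-C: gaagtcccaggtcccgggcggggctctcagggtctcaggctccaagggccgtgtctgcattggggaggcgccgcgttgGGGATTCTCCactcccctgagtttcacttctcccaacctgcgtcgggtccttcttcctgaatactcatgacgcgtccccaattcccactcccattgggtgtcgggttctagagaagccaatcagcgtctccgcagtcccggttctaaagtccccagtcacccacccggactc

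TAP1 (chr6:32853705-32853954, minus strand) and PSMB9 (chr6:32853942-32854191, plus strand) are transcribed away from each other, with 487 bases between their RefSeq starts. The windows below share 13 bases and together cover that stretch. Capitals mark the kappaB match and the overlapping matches to the interferon-stimulated response element (ISRE, searched on both strands as GAAA, any 2 bases and GAAA):

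TAP1: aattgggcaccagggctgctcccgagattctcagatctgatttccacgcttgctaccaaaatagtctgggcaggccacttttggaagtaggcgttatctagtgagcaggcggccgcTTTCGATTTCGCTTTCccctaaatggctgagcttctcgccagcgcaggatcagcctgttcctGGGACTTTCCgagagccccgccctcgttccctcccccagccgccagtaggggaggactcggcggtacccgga
PSMB9: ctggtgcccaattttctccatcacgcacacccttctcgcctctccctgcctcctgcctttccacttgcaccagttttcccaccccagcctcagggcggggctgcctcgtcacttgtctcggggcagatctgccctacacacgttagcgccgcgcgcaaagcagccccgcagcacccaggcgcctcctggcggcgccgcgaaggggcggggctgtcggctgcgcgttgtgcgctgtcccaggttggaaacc

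In the first window of each gene, the kappaB consensus was matched before 5 of 8 members, HLA-B, HLA-C, B2M, TAP1 and TAPBP, and before 9.96% of 35116 RefSeq promoters of the same length. The ISRE was matched before 4 of 8, B2M, TAP1, TAP2 and TAPBP, and before 3.02% of all promoters. The HLA-B match to kappaB is read on both strands at overlapping positions. The CRE core TGACG, part of the site bound by CREB factors, was matched before 6 of 8 members and 21.2% of all promoters. CCAAT was matched before 5 of 8 and 32.0%, and the GC box GGGCGG before 5 of 8 and 42.6%. The first PSMB9 window held neither an ISRE nor a kappaB match, and the same was true of the first PSMB8 window. A match is a description of letters and not a site.

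**Figure D1:**
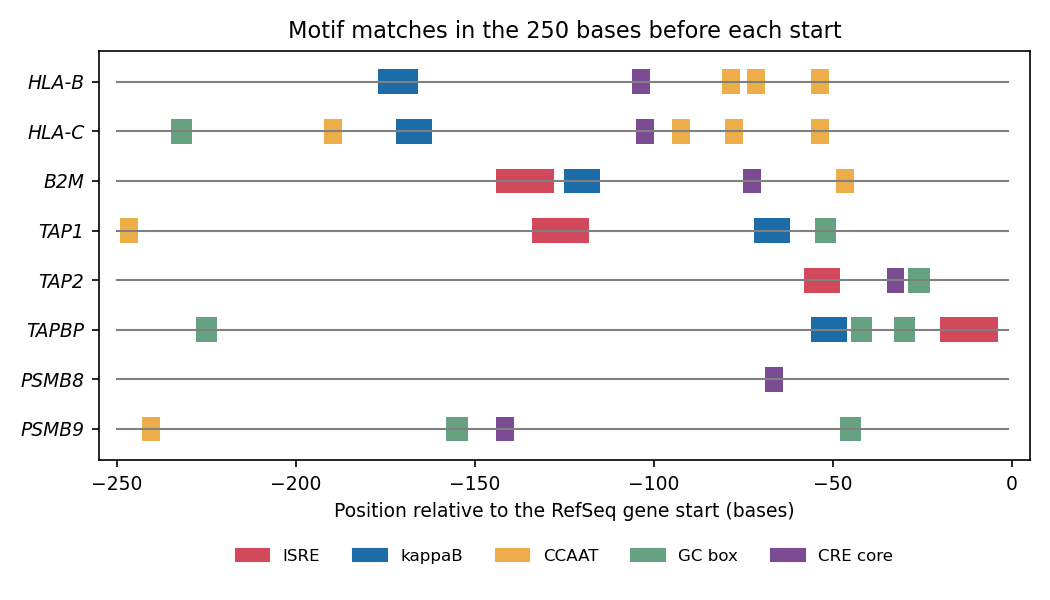
Positions of motif matches on either strand in the first RefSeq window of 8 class I presentation genes, with the x axis in bases before the annotated start. Coloured blocks are matches, and kappaB blocks lie before HLA-B, HLA-C, B2M, TAP1 and TAPBP.

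The heavy chain genes were lower in the V4 library than in the V1 library, each to its own degree. HLA-B had 180 counts (19.5 CPM) in V1 and 75 counts (7.80 CPM) in V4. HLA-C, which presents peptides and is a ligand of killer-cell receptors, had 5533 counts (598 CPM) in V1 and 3801 (396 CPM) in V4. HLA-E, which presents leader peptides of other class I chains to natural killer cells, had 2087 counts (226 CPM) in V1 and 1669 (174 CPM) in V4. The V1 library was therefore the higher one for all 3 heavy chains.

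After scaling of the libraries, HLA-B was 2.43-fold lower in V4, with a 95% exact conditional binomial interval of 1.85 to 3.23. Intervals here and below cover counting error only and not differences between cultures. HLA-C was 1.48-fold lower (interval 1.42 to 1.54) and HLA-E 1.27-fold lower (interval 1.19 to 1.35). A gene was called where its ratio, with a prior count of 2, was at least 1.5-fold and its interval excluded 1. HLA-B was called by that rule, HLA-C lay just under the fold and HLA-E further under it. Scaling by total counts took HLA-C past the fold, at -0.60 on the log2 scale against -0.56. In the main setting the 3 ratios differed from each other beyond counting error. HLA-B was lower relative to HLA-C by 1.65-fold (interval 1.25 to 2.20), and HLA-C relative to HLA-E by 1.16-fold (interval 1.08 to 1.26). These quantities do not depend on library scaling, but they do depend on a trend with GC content. With that trend removed, HLA-C stood at -0.34 and HLA-E at -0.23 on the log2 scale, against -0.56 and -0.34. No interval between the 2 genes was computed there. HLA genes are near-identical over long stretches. The sources used here do not say to which gene a shared read was given, so the split among them is uncertain. Summed over the 3 genes, counts were 7800 in V1 and 5545 in V4, 1.43-fold lower (interval 1.38 to 1.48), a sum chosen after the values were seen.

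B2M encodes beta-2-microglobulin, the invariant light chain that every class I molecule needs, and it is the only member on chromosome 15. It had 211 counts (22.8 CPM) in V1 and 214 (22.3 CPM) in V4, a ratio of 1.00 (interval 0.823 to 1.22). The HLA-C count per B2M count was 1.48-fold lower in V4 (interval 1.21 to 1.80), and HLA-E per B2M 1.27-fold lower (interval 1.03 to 1.56). In the main setting, the heavy chain and light chain messages thus did not differ by the same factor between these libraries. With a trend on GC content removed, the log2 ratios lay closer together. They were -0.34 for HLA-C, -0.23 for HLA-E and -0.09 for B2M, with HLA-B at -1.09. No interval of the ratio between genes was computed in that setting, so whether the difference from B2M holds there was not tested.

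The peptide transporter is a dimer of TAP1 and TAP2, and their counts were far apart. TAP1 had 1899 counts (205 CPM) in V1 and 1641 (171 CPM) in V4, 1.17-fold lower (interval 1.10 to 1.25). With a trend on GC content removed, the TAP1 ratio was -0.08 on the log2 scale and its interval included 1. TAP2 had 49 counts (5.30 CPM) in V1 and 18 (1.87 CPM) in V4, 2.76-fold lower (interval 1.58 to 5.03), and it was called. Relative to TAP1, TAP2 was lower in V4 by 2.35-fold (interval 1.34 to 4.31). TAPBP, which encodes tapasin, the bridge between the transporter and the empty class I molecule, had 12 counts in V1 and 11 in V4, with a ratio of 0.904 and an interval of 0.361 to 2.24. A difference in TAPBP of less than that width was not detectable at this depth.

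The immunoproteasome members were both read at under 50 counts. PSMB9, the inducible subunit that takes the place of PSMB6, had 43 counts (4.65 CPM) in V1 and 8 (0.833 CPM) in V4. It was 5.45-fold lower (interval 2.53 to 13.4), the largest difference among the members, and it was called. PSMB8, which takes the place of PSMB5, had 8 counts in V1 and 9 in V4, with a ratio of 1.11 and an interval of 0.380 to 3.31. PSMB8 was the 1 member below the filter of a mean of 1 CPM. PSMB9 passed that filter only through the V1 library, since its V4 level was under 1 CPM. PSMB9 was lower relative to PSMB8 by 6.05-fold, with an interval of 1.51 to 24.1 that reflects the few counts.

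PSMB9 and TAP1, the head-to-head pair whose windows are printed above, differed from each other beyond counting error. Relative to TAP1, PSMB9 was lower in V4 by 4.64-fold (interval 2.15 to 11.5). Relative to PSMB6, the constitutive subunit with 1291 counts in V1 and 1108 in V4, it was lower by 4.61-fold (interval 2.13 to 11.4). GENCODE v29 also lists a PSMB9 gene model that overlaps TAP1 and PSMB8 on the other strand. The sources used here do not give the strand setting of the counting, so reads from overlapping stretches cannot be told apart.

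**Figure D2:**
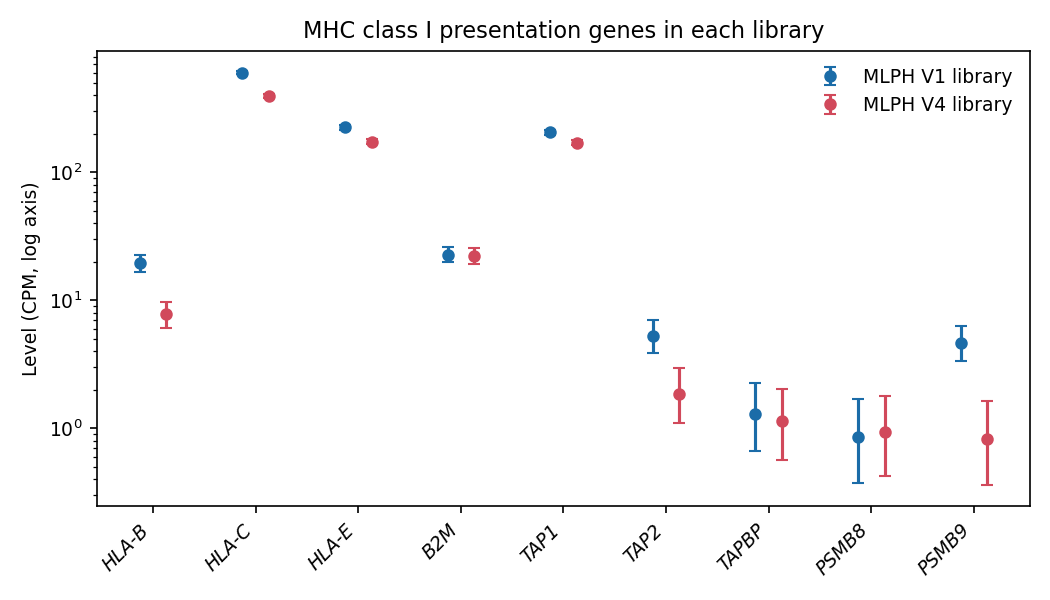
Level of each class I presentation gene in CPM on a log axis, in the V1 library (blue) and the V4 library (red), with 1 library per group and 95% exact Poisson bars of counting error. The bars of HLA-B, HLA-C, HLA-E, TAP1, TAP2 and PSMB9 do not meet between the libraries, while those of B2M, TAPBP and PSMB8 overlap.

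**Figure D3:**
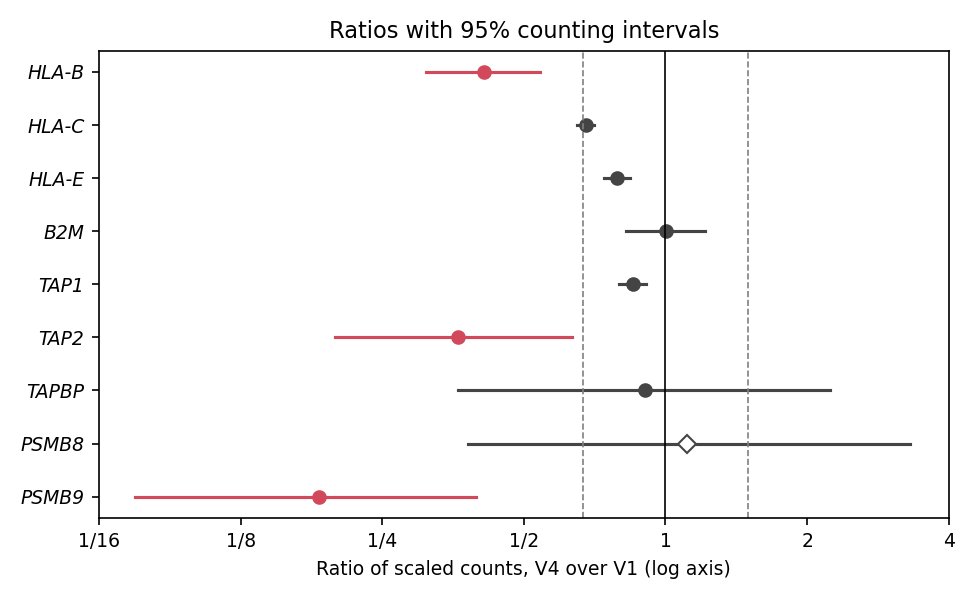
Ratio of scaled counts, V4 over V1, on a log axis with 95% counting intervals, called genes in red, and dashed lines at 1.5-fold in either direction. HLA-B, TAP2 and PSMB9 lie left of the lower dashed line, and the open diamond is PSMB8, which was below the filter.

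Of the 9 members, 8 passed the filter, and 3 of these were called lower, 0 higher and 5 neither. PSMB9, among those called, passed the filter only through V1, where it was high, so its place in this count is not independent of the filter. Over all 8840 genes kept, 7.1% were called lower and 5.5% higher. With the interval alone and no fold asked, 6 of 8 members were lower and 2 had an interval that included 1, against 21.0% lower and 19.9% higher over all kept genes. At a mean of at least 10 CPM, where intervals are narrow, 26.0% of 5233 genes were lower by that measure. The median log2 ratio of the 8 members was -0.45, and that of all kept genes -0.00. The number of members is small, and 5 of the 9 had fewer than 200 counts in both libraries, so the share called rests on few reads.

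Each member was also placed among genes of its own level or above. For HLA-C, 340 kept genes were as abundant or more so, and 5 of them, HLA-C included, had a ratio as low or lower (1.47%). For HLA-B the numbers were 31 of 4713 genes (0.658%). For HLA-E they were 46 of 959 (4.80%), and for TAP1 123 of 1024 (12.0%). PSMB9 stood at 64 of 7266 (0.881%) and TAP2 at 91 of 6844 (1.33%). The other members did not lie at the low end. B2M stood at 1951 of 3897 (50.1%) and TAPBP at 3081 of 8519 (36.2%). PSMB8, itself below the filter, stood at 5657 of 8840 (64.0%). These shares are over all kept genes at or above a member's level, not over genes of like abundance. For TAP2 and PSMB9 they take in most kept genes, for HLA-C only the most abundant ones. Shares of members at different levels are therefore not compared.

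**Figure D4:**
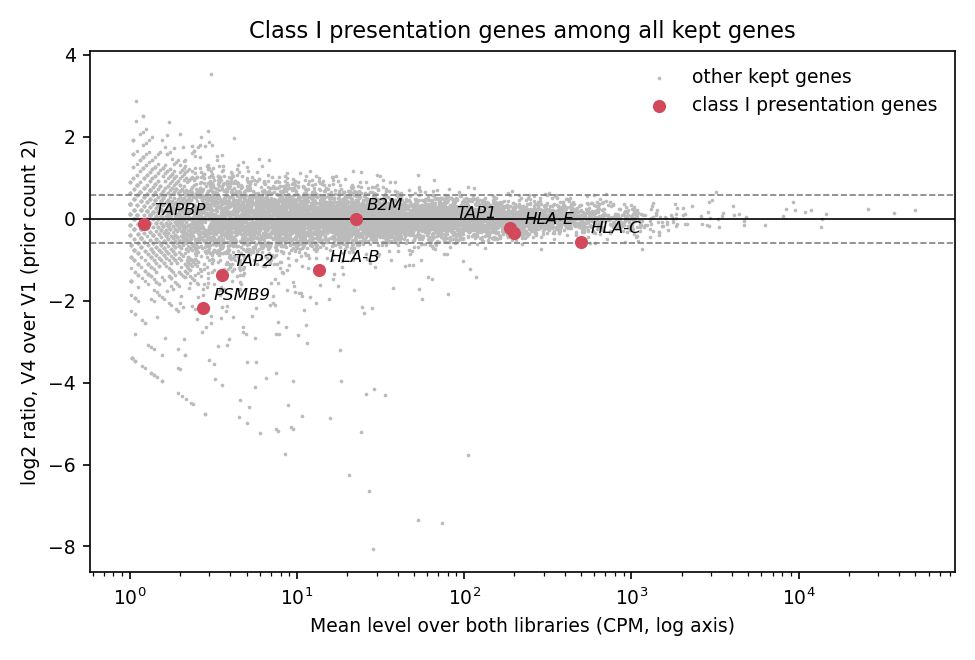
Log2 ratio of V4 over V1 (prior count of 2) against mean CPM on a log axis for the 8840 kept genes in grey and the 8 kept class I presentation genes in red, with dashed lines at 1.5-fold. PSMB9, TAP2 and HLA-B lie below the lower line, HLA-C just above it, and B2M on 0.

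Levels were compared between members per kilobase of the longest GENCODE v29 transcript. HLA-C was the highest, at 318 CPM per kilobase in V1 and 210.4 in V4, above 97.6% and 96.4% of kept genes. HLA-E followed at 86.7 and 66.8, and TAP1 at 69.4 and 57.7. HLA-B stood at 12.6 in V1 and 5.05 in V4, and B2M at 9.49 and 9.27. The kept-gene median was 5.36 in V1 and 5.18 in V4. PSMB9 (1.74 and 0.311), TAP2 (0.932 and 0.330), PSMB8 (0.364 and 0.395) and TAPBP (0.345 and 0.305) lay below it in both libraries. With the median annotated transcript length in place of the longest, HLA-C, HLA-E and TAP1 were again the highest 3 in V1, and B2M (31.2) lay above HLA-B (21.9). The order of HLA-B and B2M, and that of the lowest 4 members, thus depended on the length chosen or on few counts.

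These levels show an uneven pathway. Per length, TAP1 exceeded TAP2 by 74.4-fold in V1 and 175-fold in V4, or by 46.5-fold and 109-fold with median transcript lengths. HLA-C exceeded B2M by 33.5-fold in V1 and 22.7-fold in V4, or by 16.3-fold and 11.1-fold with median lengths. PSMB6 exceeded PSMB9 by 92.2-fold in V1 and 426-fold in V4, or by 35.3-fold and 163-fold. PSMB5 exceeded PSMB8 by 9.40-fold and 6.93-fold, or by 6.88-fold and 5.07-fold. The direction of each held with either length, and the sizes did not. The sources used here do not say whether reads that match more than 1 gene or transcript were left out, and such a loss could differ from gene to gene. Levels between genes are therefore less certain than the difference of 1 gene between libraries.

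Beside the members, 72 other listed pathway genes were kept. Of these, 11 (15.3%) were called lower and 1 (1.39%) higher, against 7.1% and 5.5% of all kept genes, with a median log2 ratio of -0.09. The chaperones that fold and load class I molecules had 0 of 9 kept genes called, a median of -0.12, and HSPA5, the endoplasmic reticulum chaperone BiP, as the most abundant (46982 and 42487 counts). Peptide-trimming enzymes had 0 of 6 called and a median of 0.12, with the oligopeptidase gene THOP1 the most abundant (5685 and 4698 counts). The structural subunits of the proteasome core had 0 of 10 called and a median of -0.08, with PSMB4 the most abundant. The constitutive catalytic subunits, PSMB10, the proteasome activators and the assembly factor POMP had 0 of 9 called and a median of -0.05 (0.00 with a transcript length trend removed), with PSMB7 the most abundant. PSMB10, the third inducible subunit, had 383 counts in V1 and 374 in V4, and relative to the constitutive PSMB7 its ratio was 1.08 (interval 0.933 to 1.26). Among the inducible subunits, PSMB9 was thus called and PSMB10 was not.

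Transcription regulators of class I genes had 1 of 6 kept genes called lower, SUZ12, a Polycomb repressor subunit with 29 counts in V1 and 14 in V4 (2.10-fold, interval 1.07 to 4.30). The median of that list was -0.10, but 0.05 at a mean of at least 10 CPM and 0.03 with no filter. The most abundant was the CREB family gene ATF1, with 1493 and 1575 counts. NLRC5 had 192 counts in V1 and 222 in V4, a ratio of 1.14 (interval 0.936 to 1.39), and IRF1, an interferon-induced activator, had 300 and 233, 1.31-fold lower (interval 1.10 to 1.56) and not called. Interferon receptors and signalling genes had 1 of 7 called lower, the feedback inhibitor SOCS3 (36 and 14 counts, 2.61-fold, interval 1.37 to 5.23), with a median of -0.07 and the kinase gene TYK2 as the most abundant. The 3 kept genes for other class I and class I-like chains had 1 called lower and a median of -0.58. Over all kept genes, 7.1% were called lower and 5.5% higher, and each of these lists is too short to set against that.

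Interferon-stimulated genes, a list that shares no gene with the members, had 6 of 18 kept genes called lower and 0 higher, beside 7.1% lower and 5.5% higher over all kept genes. Their median was -0.26, and 0.07 at a mean of at least 10 CPM, so its sign depended on genes with low counts. The 6 called genes also all had a mean under 10 CPM, so none of them was left at that filter. UBE2L6 and GBP2 passed the filter of a mean of 1 CPM only through V1, where they were high, so the share called is not independent of the filter. UBE2L6, the conjugating enzyme of ISG15, had 26 counts in V1 and 0 in V4. With 3 counts taken as the floor for V4 it was 8.79-fold lower. The lower limit of its interval was 6.65-fold, with no upper limit. HERC5, the ISG15 ligase, had 105 and 23 counts, 4.63-fold lower (interval 2.93 to 7.62), and GBP2, a guanylate-binding protein, had 31 and 6, 5.24-fold lower (interval 2.15 to 15.4). ISG15 itself, the most abundant, had 5733 and 5031 counts and was 1.16-fold lower (interval 1.11 to 1.20).

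Class II presentation genes serve CD4 T cells and are read here at very low counts. Of these, 2 of 4 kept genes were called lower and 1 higher, with a median of -0.57. Over all kept genes, 7.1% were called lower and 5.5% higher, and 4 genes are too few to set against that. HLA-DMA and HLA-DMB encode the pair of chains that edits class II peptides, and they differed in opposite directions. HLA-DMA had 49 counts in V1 and 25 in V4, 1.99-fold lower (interval 1.20 to 3.36), while HLA-DMB had 5 and 27, a ratio of 5.33 (interval 2.02 to 17.7). HLA-DRB5, a class II beta chain with close copies, had 15 and 4 counts, 3.80-fold lower (interval 1.21 to 15.7). HLA-DRB5 passed the filter of a mean of 1 CPM only through V1, and HLA-DMB only through V4.

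**Figure D5:**
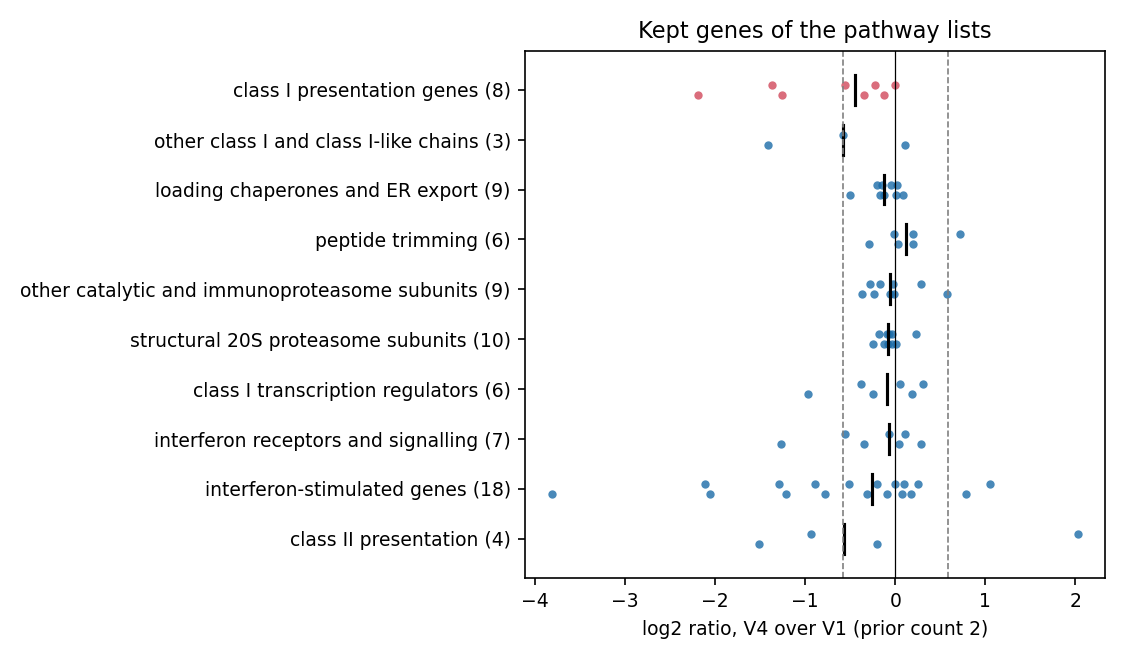
Log2 ratio of V4 over V1 (prior count of 2) for each kept gene of the class I presentation genes (red) and of the other pathway lists (blue), with the number kept in brackets, black bars at the medians and dashed lines at 1.5-fold. The class I genes have a median of -0.45, and the chaperone, trimming and proteasome lists lie between the dashed lines but for 1 trimming gene.

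Position was compared as well, since 8 of the 9 members lie on chromosome 6 within the MHC. In GENCODE v29 gene order from GABBR1 to KIFC1, an interval set after the values were seen, 69 other genes were kept. Of these, 7 (10.1%) were called lower and 2 (2.90%) higher, beside 7.1% and 5.5% of all kept genes, and their median log2 ratio was -0.08. The genes called lower include HLA-DMA and HLA-DRB5, given above, and IER3 and CFB. IER3 had 598 counts in V1 and 29 in V4, a ratio of 0.048 (interval 0.032 to 0.069). CFB had 84 and 37, a ratio of 0.434 (interval 0.287 to 0.647). The genes called higher include HLA-DMB, which lies near the TAP and PSMB genes. BRD2, also near them, had 1691 counts in V1 and 1524 in V4, 1.12-fold lower (interval 1.05 to 1.21) and not called.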

How the data were processed

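Members and gene lists were chosen with earlier results of these data known. Per the labels' protocols, single-end sequencing of poly(A) RNA on a HiSeq2500 gave reads of 150 bp. The authors deposited whole-number read counts per gene symbol. The submitters' processing notes name build hg19. The sources used here do not give the aligner, counter, annotation or strand setting, or whether the technical replicates of the design text were summed. A column was used only where its name matched 1 sample (columns not used: 1), so the planned comparisons with the empty vector were left out.

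The table had 15512 rows. Counts of 21 repeated symbols were summed, and 22 rows with a calendar date as symbol stayed unnamed. Genes averaging 1 CPM or more across the pair of libraries were kept (8840, with a median count of 154 in V1 and 155 in V4). Scaling was by TMM in edgeR 4.0.16 (factors 1.01 and 0.988). Printed folds are ratios of scaled counts with 95% exact (Clopper-Pearson) conditional binomial intervals (scipy 1.17.1), and log2 ratios use a prior count of 2. Ratios between members use the exact conditional odds ratio. No molecular identifiers are described, so reads are not taken as independent molecules. The procedure was tested on simulated data. Lengths and GC content came from GENCODE v29 (GRCh38), matched for 91.3% of kept genes, and promoters from RefSeq (GRCh38.p14), of another build than the counts. The coordinates given are those of the RefSeq windows. Named genes were all members and, per list, up to 3 called genes with the largest change, and the most abundant gene. NLRC5, IRF1, PSMB5, PSMB6, PSMB10, BRD2, IER3 and CFB were chosen after their values were seen. Some genes that the rule takes are not reported here. Alternatives were size factors from DESeq2 1.42.0, scaling by total counts or the upper quartile, other filters, priors and folds, no interval condition, thinning, and lowess trends (statsmodels 0.14.6) of length or GC removed.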

Additional observations from a re-analysis of the deposited data

How the results depend on the processing

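Under 12 alternatives, HLA-B, TAP2 and PSMB9 were called lower wherever they passed the filter. Their log2 ratios ranged from -1.29 to -1.09 (HLA-B), -1.47 to -1.15 (TAP2) and -2.37 to -1.69 (PSMB9). Of the members with no call, B2M (-0.09 to 0.07) and TAPBP (-0.19 to 0.03) changed sign, HLA-E ranged from -0.38 to -0.23, and TAP1 from -0.26 to -0.08, with an interval that excluded 1 under 11 of 12 alternatives. HLA-C ranged from -0.60 to -0.34 and was called only with total counts (-0.60), where 4 members were called in place of 3. With total counts, 7.73% of all kept genes were called lower, against 7.10% in the main setting. At a mean CPM of at least 10, 5 members were left and 1, HLA-B, was called, since TAP2 and PSMB9 lay below that filter. At that filter, 3.10% of all genes were called lower and 2.66% higher. Of the other pathway genes, 1 was called lower there and 0 higher, against 11 and 1. At a 2-fold threshold 7 pathway genes were lower, beside 4.29% of all kept genes. The number of pathway genes higher was 3 with no filter beyond 1 count and 4 with no condition on the interval. It was 2 after thinning or with the GC trend removed, where the cause was not tested. Over all genes, the shares called higher in these settings were 4.53%, 7.83%, 5.38% (thinning) and 5.36% (GC trend). With the median instead of the longest transcript, 5 members again lay above the kept-gene median per kilobase in V1. The depth limits TAPBP and PSMB8, whose intervals span more than 2-fold in each direction. No paired analysis was possible because each group has 1 library.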
